A study of Mus musculus with 4 samples.

Results

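Mitochondrial respiration and carrier genes were followed in cultured mouse myoblasts that carried either a control or a Twist2 retrovirus, before and after muscle differentiation. The 44 genes are all genes of the authors' expression table whose symbols begin with Nduf, Cox and a digit, Uqcr, Atp5, Sdha to Sdhd, Idh, Slc25a, Timm, Tomm, Coq and a digit, or Acad, with Cox6a2 left out, out of 3760 listed genes. The cells were adult C57BL/6 skeletal muscle myoblasts labelled as Twist2-positive. All 4 groups received a retrovirus for 24 h, carrying green fluorescent protein (GFP) in the controls or the helix-loop-helix transcription factor Twist2, and then stood for 24 h in growth medium (20% fetal bovine serum). The growth medium groups were harvested at that point, and the differentiation medium groups after a further 5 days in 2% horse serum, in which myoblasts leave the cell cycle and fuse into myotubes. The number of animals behind the cells, the promoter of the virus and the share of infected cells are not stated in the labels. Each of the 4 groups (GFP and Twist2 cells, each in growth and in differentiation medium) had 1 library, so no difference below has a replicate check, and library and condition cannot be told apart.

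Mitochondria make ATP by oxidative phosphorylation. Electrons from NADH enter at complex I, pass through coenzyme Q to complex III and through cytochrome c to complex IV, and the proton gradient that these complexes build drives ATP synthase. Dehydrogenases of the matrix, such as isocitrate dehydrogenase and the acyl-CoA dehydrogenases of fatty acid oxidation, feed electrons into the chain. Nearly all the proteins are encoded in the nucleus and imported through the TOM and TIM translocases, while Slc25 carriers move metabolites, nucleotides and cofactors across the inner membrane. Myoblasts are known to raise mitochondrial content and oxidative enzymes as they become myotubes.

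Levels are given as CPM, in which reads are scaled to library size. The libraries held between 9235281 and 12362290 reads, and the 44 genes together took 2874 CPM in growth and 5031 CPM in differentiation medium in GFP cells, and 2518 and 3818 CPM in Twist2 cells. The Twist2 gene itself was at 0.103 and 0 CPM in the GFP libraries and at 1438 and 674 CPM in the Twist2 libraries, growth medium first. Of 9 myoblast and muscle markers 8 were listed, and their summed level was 3548, 25273, 1594 and 8658 CPM in the same order of libraries (GFP growth, GFP differentiation, Twist2 growth, Twist2 differentiation). Acta1, Des and Tmem8c made up most of that sum in GFP differentiation medium, at 12797, 6503 and 2972 CPM against 2381, 2935 and 963 CPM in Twist2 differentiation medium. Myog, at 1075 CPM in GFP and 378 in Twist2 cells, and Ckm, at 306 and 98.7 CPM, were lower there too. Myod1, Pax7 and Cdh15 did not follow them: Myod1 was at 810 CPM in GFP and 1068 in Twist2 cells, Pax7 at 4.01 and 34.6 CPM, and Cdh15 at 806 and 800 CPM. None of the endothelial, leukocyte, glial or adipocyte markers was listed, while 3 of 7 fibroblast markers summed to between 139 and 196 CPM and 2 of 6 pericyte and smooth muscle markers to between 24.7 and 85.2 CPM. Tcf4 made up most of the fibroblast sum in GFP cells. Within that sum Dcn was at 1.95, 1.19, 10.6 and 64.6 CPM in the order above, and Ly6a at 10.98, 0, 32.9 and 3.32 CPM. Dcn was thus higher, and Ly6a lower, in Twist2 differentiation than in Twist2 growth medium. Rgs5, at 51.7, 0.108, 85.1 and 4.69 CPM, and Abcc9, at 0.308, 51.0, 0.0904 and 20.0 CPM, went in opposite directions within the pericyte sum. The part of these markers in the results below was not tested, and in cell cultures measured as a whole, fewer cells of a type and less RNA per cell cannot be told apart.

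The table lists only genes with 10 CPM or more in 2 or more libraries that also differed 2-fold or more from GFP growth medium in 1 or more of the other libraries. Of 204 annotated protein-coding genes with these symbols, 160 were therefore not listed and are not analysed here. Coverage was uneven across the families: 11 of 38 complex I subunits were listed, 4 of 8 complex III subunits, 2 of 17 complex IV subunits, 4 of 17 ATP synthase subunits, 10 of 47 carriers, and none of the 8 complex II genes or 8 complex I assembly factors. Cox6a2, which the table also lists, is left out of these counts. Of the 44 genes, 41 met the 2-fold condition in GFP differentiation medium and 31 of them in that library alone, so their 2-fold difference between the GFP libraries is a condition of being listed and not a finding. The comparison of Twist2 with GFP in differentiation medium uses that library too, and for these 31 genes its sign was fixed by the listing. Here and below, that means fixed by which libraries met the 2-fold condition. In these 31 genes GFP differentiation medium met it, while Twist2 differentiation medium lay within 2-fold of GFP growth medium. Twist2 therefore lay below GFP where GFP differentiation medium was high, and above GFP where it was low. The sign was likewise fixed for the 3 genes listed through Twist2 differentiation medium alone. The difference of responses is that comparison less the growth medium one, so it leans the same way. The Twist2 differentiation response compares libraries that entered the choice less: 13 genes passed through Twist2 differentiation medium, and Twist2 growth medium admitted none.

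Below, a gene is called higher or lower when it differed at least 2-fold on the log2(CPM + 1) scale and its higher library had 10 CPM or more. In GFP cells 34 of the 44 genes were called higher in differentiation medium, against 32.6% of listed genes, and 7 were called lower, against 40.9% of listed genes. Most of the 34 lay close to the entry condition, with 24 between a log2 ratio of 1 and 1.25. Just inside the threshold were Uqcrfs1 at 1.01 and Slc25a24 at -1.02, and Ndufv3, at 0.93 just outside it, was listed through Twist2 differentiation medium.

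**Figure D1:**
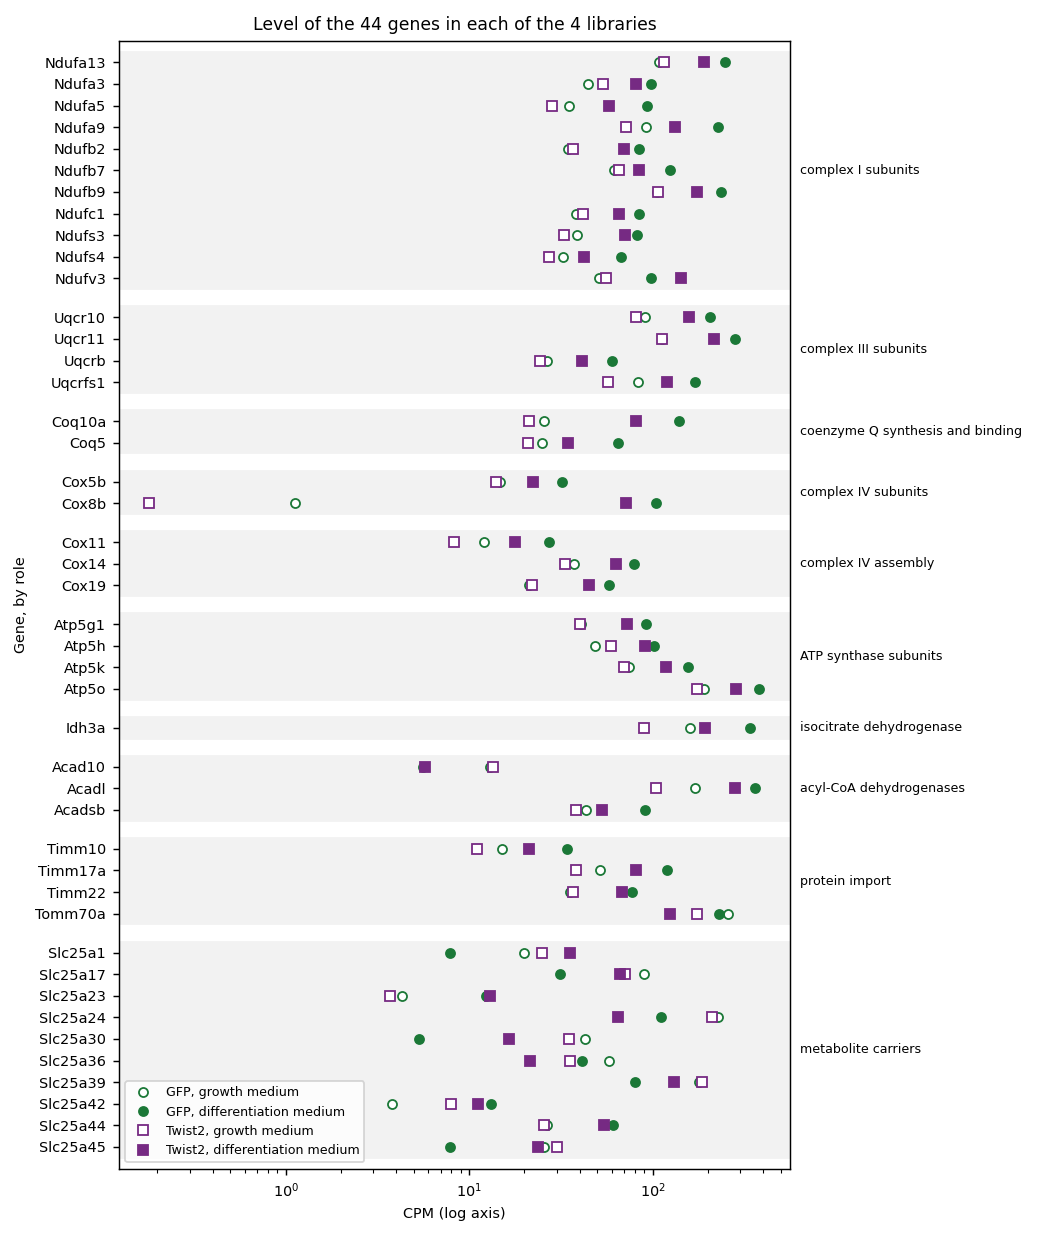
CPM of the 44 genes (log axis) in GFP (circles) and Twist2 (squares) cells, in growth medium (open) and differentiation medium (filled), 1 library each. Respiratory chain genes have both filled symbols to the right of both open ones, whereas 7 of the 10 carriers have their GFP differentiation symbol to the left of their GFP growth symbol.

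Complex I oxidises NADH and is the largest enzyme of the chain. All 11 listed subunits were higher in differentiation medium than in growth medium in both GFP and Twist2 cells, with a median log2 ratio of 1.12 in GFP cells and 0.72 in Twist2 cells. Ndufa5, an accessory subunit, was at 34.9 CPM in GFP growth, 93.4 in GFP differentiation, 28.5 in Twist2 growth and 57.8 CPM in Twist2 differentiation medium. Ndufa9, an accessory subunit of the matrix arm, was at 91.7, 226, 71.6 and 133 CPM in the same order. For both, each differentiation library lay above each growth library, and Twist2 lay below GFP in each medium. Ndufs4, an accessory subunit needed for assembly and stability of the complex, followed the same order, at 32.6, 67.7, 27.2 and 42.3 CPM.

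Ndufs3, the only core subunit listed, was at 38.9, 82.4, 32.8 and 70.7 CPM, with near-equal log2 ratios of 1.06 (95% counting interval 0.90 to 1.26) in GFP cells and 1.09 (0.93 to 1.29) in Twist2 cells. That near-equality depended on the scaling: the difference was -0.52 with libraries scaled to reads outside the table and -0.28 with median-of-ratios size factors. Intervals here and below were computed from reads with no pseudocount, and they hold only counting error. The accessory subunit Ndufv3 was at 50.9, 98.1, 55.7 and 143 CPM, and was the only one of the 11 listed through Twist2 differentiation medium alone. Its highest library was Twist2 differentiation medium, and it was the only one of the 11 that was higher there than in GFP differentiation medium. The log2 ratio was 0.54 (0.43 to 0.66). That direction followed from its listing, as did the opposite direction of the others except Ndufb2, which passed in both differentiation libraries. The smallest response in Twist2 cells belonged to Ndufb7, another accessory subunit, at 61.4, 125, 65.8 and 84.7 CPM, a log2 ratio of 0.36 (0.23 to 0.50) against 1.01 (0.88 to 1.17) in GFP cells. The other 5 (Ndufa3, Ndufa13, Ndufb2, Ndufb9 and Ndufc1), all accessory subunits, lay between 34.5 and 109 CPM in GFP growth medium and between 83.9 and 249 CPM in GFP differentiation medium.

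Complex III passes electrons from coenzyme Q to cytochrome c, and its 4 listed subunits all had higher levels in differentiation medium, with median log2 ratios of 1.15 in GFP cells and 0.93 in Twist2 cells. Uqcr11, a small subunit, was at 113, 282, 113 and 215 CPM in the same order. Per kilobase of transcript it was the most abundant of the 44 genes in GFP growth medium, at 254 CPM per kb. Uqcr10 and Uqcrb, also small subunits, were at 206 and 59.8 CPM in GFP differentiation medium and at 157 and 41.3 CPM in Twist2 differentiation medium. Uqcrfs1, the Rieske iron-sulfur protein that takes electrons from coenzyme Q, was at 83.7, 169, 57.2 and 120 CPM. It started lower in Twist2 growth medium than in GFP growth medium, with a log2 ratio of -0.54 (-0.70 to -0.40), and its response was 1.06 in Twist2 and 1.01 in GFP cells. With libraries scaled to reads outside the table, the difference of these responses was -0.49, and with size factors -0.25.

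The largest response among genes with over 10 CPM in every library belonged to Coq10a, which encodes a coenzyme Q binding protein. It was at 25.6 CPM in GFP growth, 139 in GFP differentiation, 21.1 in Twist2 growth and 81.1 CPM in Twist2 differentiation medium. Its log2 ratios were 2.40 (2.24 to 2.64) in GFP cells and 1.89 (1.73 to 2.15) in Twist2 cells, a 5.27-fold and a 3.71-fold difference. Coq5, a methyltransferase of coenzyme Q synthesis, was at 25, 65.2, 21 and 34.5 CPM. Its Twist2 response of 0.69 (0.49 to 0.96) was below its GFP response of 1.35, and the counting interval of their difference, -0.98 to -0.35, lay below 0. Of 11 annotated Coq genes only these 2 were listed.

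Complex IV reduces oxygen, and its 2 subunits in the set differed by an order of magnitude in response. Cox8b, the isoform of subunit VIII found in heart and skeletal muscle, was at 1.13 CPM (11 reads) in GFP growth, 105 CPM (966 reads) in GFP differentiation, 0.181 CPM (2 reads) in Twist2 growth and 72.0 CPM (890 reads) in Twist2 differentiation medium. The log2 ratio without a pseudocount lay between 5.69 and 7.54 in GFP cells and between 6.78 and 11.69 in Twist2 cells, and the width of the second interval comes from the 2 reads in Twist2 growth medium. Cox8b thus had its lowest levels in both growth libraries and was the widest-ranging of the 44 genes. Cox5b, a nuclear-encoded subunit of the enzyme, was at 14.7, 32.3, 14.1 and 22.2 CPM, with log2 ratios of 1.09 in GFP cells and 0.62 in Twist2 cells. Cox6a2, a heart and muscle isoform outside the set, was at 1.74, 227, 1.54 and 63.7 CPM.

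The assembly factors of complex IV were closer together. Cox11, which delivers copper to the enzyme, was at 12.1, 27.2, 8.31 and 17.7 CPM. Cox14, which acts in the synthesis and assembly of the Cox1 subunit, was at 37.5, 79.4, 33.2 and 63.3 CPM. Cox19, an intermembrane space protein of copper handling, was at 21.1, 57.7, 22.0 and 44.8 CPM. All 3 were higher in differentiation medium, by a median log2 ratio of 1.10 in GFP cells and 1.0 in Twist2 cells.

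ATP synthase subunits had the most uniform response of the families with at least 4 members. Their log2 ratios spanned 1.01 to 1.15 in GFP cells and 0.60 to 0.83 in Twist2 cells. Atp5o, the subunit of the peripheral stalk that confers oligomycin sensitivity, was the highest at 190, 383, 175 and 287 CPM. Atp5g1, which encodes the proton-carrying c subunit of the rotor, was at 40.8, 91.7, 40.4 and 72.6 CPM. Atp5h, subunit d of the stalk, was at 48.7, 102, 59.5 and 90.8 CPM, and was the only one of the 4 that was higher in Twist2 than in GFP growth medium, by 0.28 (0.12 to 0.46). Atp5k, subunit e, was at 74.1, 156, 70.0 and 119 CPM. For all 4 the order of the differentiation libraries was GFP above Twist2, as their listing through GFP differentiation medium alone required. Atp5g1, Atp5h, Atp5k, Atp5o, Uqcrb and Ndufs3 have an annotated near-identical copy (at least 95% identity over at least 50% of the transcript), so reads could have been split between copies and their levels are uncertain.

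The matrix dehydrogenases differed among themselves. Idh3a, the catalytic subunit of the NAD-dependent isocitrate dehydrogenase of the citric acid cycle, was at 161, 339, 90.2 and 193 CPM. It was lower in Twist2 cells in both media, with log2 ratios of -0.83 (-0.95 to -0.72) in growth and -0.81 (-0.89 to -0.73) in differentiation medium, and its responses were 1.07 in GFP and 1.09 in Twist2 cells. Their difference was -0.52 and -0.28 under the same other scalings. Acadl, the long-chain acyl-CoA dehydrogenase, was at 171, 364, 105 and 280 CPM, with a larger response in Twist2 cells (1.41, interval 1.32 to 1.51) than in GFP cells (1.08, interval 1.0 to 1.18). The difference of 0.32 (0.20 to 0.45) became -0.22 with libraries scaled to reads outside the table. Acadsb, which acts on short branched chains, showed the reverse, at 43.5, 90.8, 38.3 and 53.1 CPM and log2 ratios of 1.04 in GFP and 0.46 in Twist2 cells. Acad10 was the only gene outside the carriers called lower in differentiation medium, at 13.0, 5.63, 13.6 and 5.74 CPM, with log2 ratios of -1.08 in GFP cells and -1.11 in Twist2 cells.

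Among the import genes 3 of 4 were called higher in GFP differentiation medium. Timm17a, part of the TIM23 channel for matrix proteins, was at 51.4, 120, 38.5 and 81.5 CPM, and Twist2 lay below GFP in each medium. Timm10, a small chaperone of the intermembrane space, was at 15.1, 34.2, 11 and 21.2 CPM. Timm22, the channel that inserts carrier proteins into the inner membrane, was at 35.5, 77.0, 36.9 and 68.1 CPM. The outer membrane receptor for carrier precursors, Tomm70a, went the other way, at 259, 232, 175 and 124 CPM, with its highest level in GFP growth medium and its lowest in Twist2 differentiation medium. Its GFP log2 ratio of -0.16 (-0.24 to -0.08) changed sign under both other scalings of the libraries, so no direction is given for it there.

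The Slc25 carriers differed in direction among themselves. In GFP cells 3 of 10 were called higher and 6 lower in differentiation medium, with a median log2 ratio of -1.09. Slc25a30, known as the kidney mitochondrial carrier protein, had the lowest ratio: 42.6 CPM in GFP growth, 5.31 in GFP differentiation, 35.2 in Twist2 growth and 16.4 CPM in Twist2 differentiation medium. That is -2.79 (-3.46 to -2.58) in GFP cells and -1.06 (-1.35 to -0.85) in Twist2 cells. Slc25a17, which carries coenzyme A and other cofactors into peroxisomes, was at 89.8, 31.2, 70.7 and 66.6 CPM. Only GFP differentiation medium was low, and the Twist2 log2 ratio of -0.09 had an interval, -0.23 to 0.06, that included equality. Slc25a45 was likewise lowest in GFP differentiation medium, at 25.7, 7.90, 30.2 and 23.9 CPM, with a log2 ratio of -1.58 (-2.10 to -1.32) in GFP cells and -0.33 (-0.57 to -0.11) in Twist2 cells. Slc25a17 and Slc25a45 were listed through GFP differentiation medium alone, so its place as their lowest library followed from the listing.

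Slc25a1, the citrate carrier that exports citrate for lipid synthesis, went in opposite directions. It was at 19.9 CPM (194 reads) in GFP growth, 7.90 CPM (73 reads) in GFP differentiation, 24.9 CPM (276 reads) in Twist2 growth and 35.5 CPM (439 reads) in Twist2 differentiation medium. The log2 ratio was -1.23 (-1.74 to -0.94) in GFP cells and 0.49 (0.29 to 0.73) in Twist2 cells, so GFP differentiation medium was its lowest and Twist2 differentiation medium its highest library. Its listing rested on the low GFP differentiation value alone, which made that library the lowest. Slc25a39, needed for glutathione import, was at 180, 80.2, 187 and 130 CPM and was lower in differentiation medium in both cell groups.

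The paralogues Slc25a23 and Slc25a24, both calcium-regulated carriers of ATP-Mg and phosphate, differed in direction. Slc25a24 was at 227, 111, 212 and 65.0 CPM, with log2 ratios of -1.02 (-1.13 to -0.92) in GFP and -1.69 (-1.82 to -1.59) in Twist2 cells. Slc25a23 was at 4.31, 12.3, 3.70 and 13.0 CPM, with 1.33 (1.0 to 2.06) in GFP and 1.58 (1.31 to 2.35) in Twist2 cells. Slc25a24 was the more abundant in every library, also per kilobase, where it was at 66.1 against 1.28 CPM per kb in GFP growth medium and at 19.0 against 3.87 CPM per kb in Twist2 differentiation medium. Slc25a42, a coenzyme A carrier, was at 3.80, 13.1, 7.95 and 11.2 CPM, and Slc25a44, a carrier of branched-chain amino acids, at 26.7, 60.7, 25.5 and 54.4 CPM. Both were higher in the differentiation library of their own cell group. Slc25a36, a pyrimidine nucleotide carrier, was at 58.1, 41.1, 35.6 and 21.4 CPM and was under 2-fold lower in differentiation medium in each cell group.

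The calls of the carriers depended on how libraries were scaled. Listed genes took 65.1% of reads in GFP differentiation medium and 36.9% to 47.2% in the other libraries. Scaling to the reads outside the table moved the median of all listed genes by 0.78 in the GFP comparison, and then only Slc25a30 was still called lower. With median-of-ratios size factors, which moved that median by 0.34, Slc25a30, Slc25a17 and Slc25a45 were. Over all 44 genes the first of these scalings gave 35 calls higher and 1 lower, beside 40.7% and 17.8% of listed genes. The second gave 35 and 3, beside 36.4% and 26.6% of listed genes. The sign of Slc25a36 in GFP cells changed under the first scaling, to 0.30. All 21 subunits of complexes I, III, IV and ATP synthase were higher in differentiation medium in both cell groups under each scaling.

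In Twist2 cells 11 of the 44 genes were called higher in differentiation medium, against 26.5% of listed genes, and 3 were called lower (Acad10, Slc25a24 and Slc25a30), against 24.5% of listed genes. The share called higher, 25%, was thus near that of the whole table. Scaled to the reads outside the table, the counts were 22 higher and 1 lower, beside 33.3% and 16.6% of listed genes under that scaling. Of the 44 log2 ratios 36 were above 0, each with an interval above 0. Of the 3760 listed genes 1737 were above 0, and 1616 had an interval above 0. The median of the 44 was 0.75, beside -0.22 over all listed genes. Of the 21 complex subunits all 21 were above 0, with a median of 0.75, and 4 (Cox8b, Ndufv3, Ndufs3 and Uqcrfs1) reached the 2-fold call.

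The GFP and Twist2 differentiation comparisons share no library, so the second was read for the genes called in the first, but the listing limits it. Most of the 34 genes called higher in GFP cells were listed through GFP differentiation medium alone. Their Twist2 differentiation level thus lay within 2-fold of GFP growth medium, which limits 2-fold calls in Twist2 cells. All 34 genes called higher in GFP cells were also above 0 in Twist2 cells, as were 94.9% of the 1205 listed genes called higher there, and 10 of the 34 reached 2-fold, 29.4% beside 63.2% of the 1205. Their median log2 ratio was 1.13 in GFP and 0.88 in Twist2 cells, and 1.66 and 1.29 over the 1205. The 34 thus had smaller GFP ratios than the 1205, so 29.4% and 63.2% do not compare like with like. Of the 7 called lower in GFP cells, 3 were called lower in Twist2 cells and 1, Slc25a1, was above 0.

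**Figure D2:**
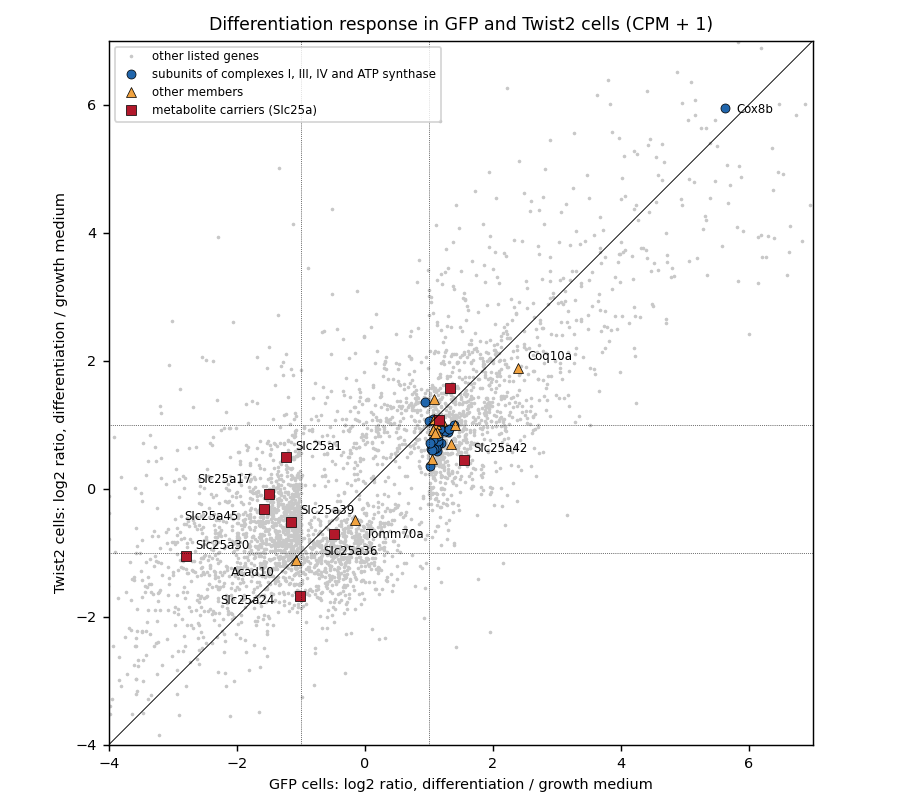
Log2 ratio of differentiation over growth medium in GFP cells (x axis) and Twist2 cells (y axis), both with CPM + 1, for the members (coloured by role) and other listed genes (grey; 153 lie outside the range of -4 to 7). Subunits crowd just right of 1 and mostly between 0.36 and 1 on the y axis, while carriers spread from -2.79 to 1.56 on the x axis.

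Twist2 was compared with GFP within each medium. With 1 library per group, an effect of the transcription factor cannot be told apart from a difference between libraries. In growth medium none of the 44 genes, of which 41 had the minimum CPM, reached 2-fold in either direction, beside 5.21% of listed genes called higher and 10.6% called lower. The median log2 ratio was -0.12, against -0.10 over all listed genes. The counting interval excluded equality for 23 of the 44, and for 2708 of the 3760 listed genes. Idh3a at -0.83, Acadl at -0.70, Slc25a36 at -0.69, Tomm70a at -0.56 and Uqcrfs1 at -0.54 were the lowest among genes with at least 10 CPM. With size factors 12 of the 44 ratios changed sign, the median became 0.11 and Slc25a42 reached 1.09, so a direction for the whole set in growth medium is not given.

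In differentiation medium 36 of the 44 genes were lower in Twist2 than in GFP cells, 34 of them with intervals below 0. The listing fixed this direction for most of the 36. Of the 3760 listed genes 1923 were lower, and 1769 had intervals below 0. The median log2 ratio of the 44 was -0.39 beside -0.06 over all listed genes. None was called lower, against 25.2% of listed genes, and 4 were called higher, against 25.4%. The 4 were the carriers Slc25a1 (2.04, interval 1.81 to 2.55), Slc25a45 (1.48, 1.22 to 1.98), Slc25a30 (1.47, 1.17 to 2.11) and Slc25a17 (1.07, 0.90 to 1.29). Slc25a1, Slc25a17 and Slc25a45 were listed only for low GFP differentiation values, which fixed their direction, while Slc25a30 passed in both differentiation libraries. Among the 21 complex subunits 20 were lower in Twist2 cells, with a median of -0.39, and Ndufv3 was the exception. All of the 21 but Ndufb2, Cox8b and Ndufv3 were listed through GFP differentiation medium alone, which fixed that direction. Ndufv3 was listed through Twist2 differentiation medium alone, which fixed the opposite direction. Muscle markers summed to 8658 CPM in Twist2 differentiation medium against 25273 CPM in GFP cells. Acta1, Des, Tmem8c, Myog and Ckm were lower there, while Myod1 and Pax7 were higher and Cdh15 near-equal. Their part in this result was not tested. Scaled to the reads outside the table, 20 of the 44 genes were called lower, near the 44.4% of listed genes under that scaling. Only Slc25a1 was still called higher, beside 14.4% of listed genes. The median of the 44 was then -0.98 beside -0.63 over all listed genes. Ndufv3, Slc25a23 and Acad10 changed sign, Acad10 also with size factors.

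**Figure D3:**
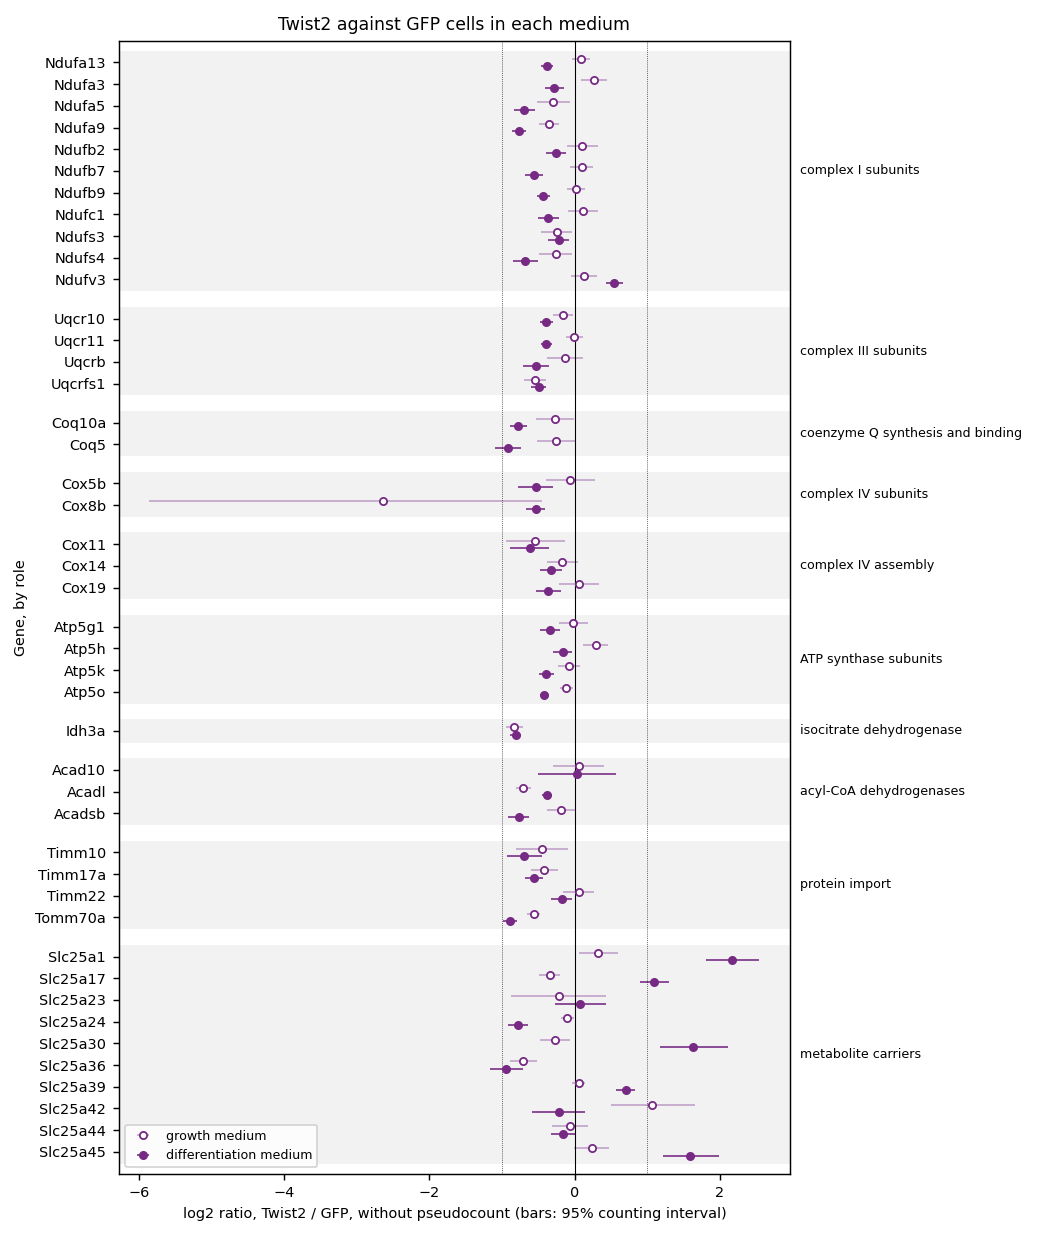
Log2 ratio of Twist2 over GFP cells for each gene, in growth medium (open) and differentiation medium (filled), without a pseudocount, with bars for the 95% counting interval of 1 library against 1. Most filled points of the respiratory chain lie between 0 and -1, and 4 carriers (Slc25a1, Slc25a17, Slc25a30, Slc25a45) lie right of 1.

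The difference of responses, taken as the Twist2 log2 ratio of differentiation less the GFP one, was below 0 for 32 of the 44 genes, with an interval below 0 for 24. For genes listed through GFP or Twist2 differentiation medium alone, the listing leans it, as set out above. Over the 3760 listed genes it was below 0 for 1667, with an interval below 0 for 1248. Its median was -0.30 beside 0.19 over all listed genes. It was at least 1 above 0 for 4 genes, against 25.5% of listed genes, and at least 1 below 0 for 1, against 12.6%. The 4 were Slc25a30 at 1.73 (1.41 to 2.40), Slc25a1 at 1.72 (1.40 to 2.29), Slc25a17 at 1.41 (1.20 to 1.68) and Slc25a45 at 1.26 (0.92 to 1.80), and the 1 was Slc25a42 at -1.10 (-1.94 to -0.63). Of the 21 complex subunits 17 had an interval below 0, led by Ndufb7 at -0.65 and Ndufa3 at -0.54. Ndufv3, at 0.42 (0.21 to 0.62), was the only subunit with an interval above 0, and with the first of the scalings above it was -0.12. Under that scaling only Slc25a30 and Slc25a1 still differed by 1 or more above 0, at 1.27 and 1.24, and 9 genes lay at least 1 below 0. The median over all listed genes also moved, from 0.19 to -0.33, and that of the 44 to -0.84. The matching shares of listed genes are not given, so these counts are not read as particular to the 44.

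**Figure D4:**
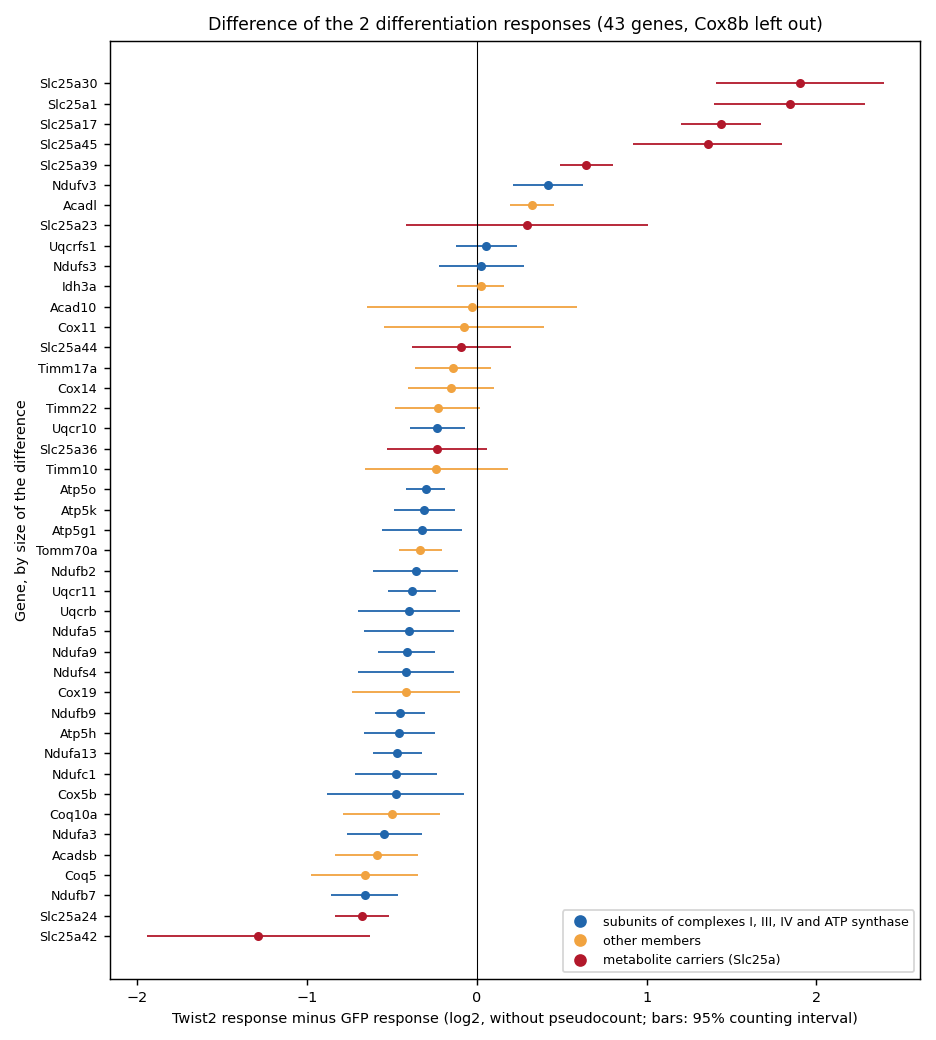
Difference of the differentiation responses (Twist2 minus GFP, log2, without a pseudocount) for 43 genes in order of size, with 95% counting intervals. Cox8b is left out because it had 2 reads in Twist2 growth medium. Carriers hold both ends of the order, and most complex subunits lie between -0.65 and -0.23.

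Sorted by level over the 4 libraries, 23 of the 44 genes ran from GFP differentiation through Twist2 differentiation and GFP growth down to Twist2 growth medium, an order that 18.8% of listed genes had. A further 10 had the growth libraries the other way round, as did 6.84% of listed genes. Slc25a39, Slc25a45 and Acad10 ran from Twist2 growth through GFP growth and Twist2 differentiation down to GFP differentiation medium, an order of 19.0% of listed genes. For genes listed through GFP differentiation medium alone, the order of the differentiation libraries was fixed by the listing.

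Promoter sequence is a feature that the choice of genes did not use. RefSeq promoter windows on GRCm38.p6, 250 bases before to 50 after the start, were found for 39 of the 44 genes, 43 windows in all. Ndufb9, Uqcrb, Coq5, Idh3a and Slc25a44 had no entry. The windows were searched on both strands for 6 motifs, none of which lies within another: GCGCA and GCGC parted by 1 base of any kind, bound by nuclear respiratory factor 1 (NRF1), CCGGAAG, an ETS motif bound by GABP among others, TCAAGGTCA of the estrogen-related receptors, the E-boxes CAGCTG and CATCTG, and TATAAA. Sequences are shown for Cox8b as the gene with the widest range, Atp5h and Uqcr11 as complex subunits with an NRF1 or an ETS match, and Slc25a1 as the carrier with opposite directions. They run 5′ to 3′ on the gene's strand up to the base before the annotated transcript, with motif matches in capitals.
Cox8b: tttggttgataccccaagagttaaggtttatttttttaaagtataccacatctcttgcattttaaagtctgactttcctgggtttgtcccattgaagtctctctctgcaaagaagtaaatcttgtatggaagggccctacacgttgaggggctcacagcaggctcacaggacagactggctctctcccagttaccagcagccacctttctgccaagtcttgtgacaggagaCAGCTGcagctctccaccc
Atp5h: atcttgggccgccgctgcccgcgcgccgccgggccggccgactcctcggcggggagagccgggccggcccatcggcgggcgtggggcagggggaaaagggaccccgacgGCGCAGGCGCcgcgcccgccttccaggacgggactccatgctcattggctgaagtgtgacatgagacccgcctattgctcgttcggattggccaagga
Uqcr11: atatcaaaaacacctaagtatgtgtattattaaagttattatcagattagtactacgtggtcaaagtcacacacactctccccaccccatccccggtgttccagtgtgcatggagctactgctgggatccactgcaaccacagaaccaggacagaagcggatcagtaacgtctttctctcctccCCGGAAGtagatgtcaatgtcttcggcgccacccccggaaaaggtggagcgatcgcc
Slc25a1: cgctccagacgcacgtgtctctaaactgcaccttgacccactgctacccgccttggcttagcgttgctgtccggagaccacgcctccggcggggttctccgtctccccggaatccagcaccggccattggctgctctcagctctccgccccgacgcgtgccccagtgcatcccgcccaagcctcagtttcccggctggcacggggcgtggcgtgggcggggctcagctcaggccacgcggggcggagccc

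All 4 genes lie on the minus strand of GRCm38, and the shown stretches are chr7:140900447-140900696 for Cox8b, chr11:115419963-115420169 for Atp5h, chr10:80406831-80407071 for Uqcr11 and chr16:17928220-17928469 for Slc25a1, all upstream of the first exon. In Cox8b, whose levels were 105 and 72.0 CPM in differentiation medium, CAGCTG begins 19 bases before the RefSeq start, where the shown stretch also ends. A second CAGCTG and the TATAAA of the Cox8b window lie after that start, outside the shown stretch. The Atp5h match GCGCAGGCGC begins 141 bases before the RefSeq start and the Uqcr11 match CCGGAAG 66 bases before it. The stretches shown for these genes end 43 and 9 bases short of that start, at the 5′ end of the GENCODE gene. The Slc25a1 window holds none of the 6 motifs.

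NRF1 matches were found in 6 of the 43 windows (14.0%), against 7.29% of windows of listed genes and 4.60% of all 32851 windows. The genes were Atp5h, Atp5k, Atp5o, Ndufa5 with overlapping windows, and Acad10, so 5 of 20 windows of complex subunits (25%) and none of 10 carrier windows held one. ETS matches were in 9 windows (20.9%), against 12.4% of listed and 8.86% of all windows, and lay in Atp5h, Atp5k, Uqcr11, Ndufb7, Ndufs3, Cox14, Timm10, Tomm70a and Slc25a17. No window held the TCAAGGTCA letters, which 0.423% of all windows hold. CAGCTG was in 5 windows (11.6%), against 17.8% of listed windows, and Cox8b was the only complex subunit with it. CATCTG was also in 5 windows, of Cox19, Slc25a23 and Timm22, which is 11.6% against 11.4% of listed and 17.2% of all windows. TATAAA was in 3, of Cox8b, Ndufa3 and Ndufb7, which is 6.98% against 7.59% of listed and 13.6% of all windows. In Cox8b it lies after the start. A match is a description of letters, not of a bound site.

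Other mitochondrial and energy genes were read from fixed lists, with the same selection. Of 29 genes of the citric acid cycle and pyruvate dehydrogenase 15 were listed, of which 11 were called higher and 2 lower in GFP differentiation medium, beside 32.6% and 40.9% of all listed genes, and 6 higher and 1 lower in Twist2 differentiation medium, beside 26.5% and 24.5%. None was higher and 4 (26.7%) were lower in Twist2 than in GFP differentiation medium, beside 25.4% and 25.2%. The same shares of all listed genes apply to the lists that follow. Pcx, pyruvate carboxylase, was at 18.6, 79.4, 14.7 and 66.3 CPM in the usual order. Of 28 fatty acid oxidation genes outside the set 12 were listed, with 7 called higher and 3 lower in GFP cells and 6 higher and none lower in Twist2 cells. Acsl3, a long-chain acyl-CoA synthetase, was at 92.9, 722, 32.2 and 264 CPM, whereas Cpt1c, a carnitine palmitoyltransferase isoform, was lowest in GFP differentiation medium, at 73.4, 12.0, 100 and 56.6 CPM.

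Of 40 assembly factors of the chain outside the set 5 were listed, all called higher in GFP cells and 2 in Twist2 cells, with medians of 1.09 and 1.0. Uqcc1, an assembly factor of complex III, was at 50.9, 189, 30.0 and 103 CPM, and Sco1, a copper chaperone of complex IV, at 13.6, 62.9, 12.6 and 20.6 CPM. The mitochondrial ribosome gave 4 listed genes with medians of 1.02 in GFP and 0.87 in Twist2 cells. No mitochondrially encoded gene was listed. Of 28 regulators of mitochondrial biogenesis 3 were listed. Ppargc1b, a coactivator of oxidative genes, was at 18.0, 26.3, 4.16 and 11.6 CPM, lower in Twist2 cells in both media, and Gabpa, the DNA-binding subunit of GABP, was at 143, 114, 95.2 and 56.5 CPM. Ppard went the other way, at 26.2, 44.4, 29.5 and 71.8 CPM. Its log2 ratios of Twist2 over GFP were 0.16 (-0.07 to 0.41) in growth and 0.68 (0.52 to 0.87) in differentiation medium.

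Of 41 genes of mitochondrial dynamics and quality control 8 were listed, 4 called higher and 2 lower in GFP cells and 3 higher in Twist2 cells. Chchd10, a cristae protein, was at 5.85, 63.7, 2.44 and 35.3 CPM. Of 16 outer membrane and calcium uniporter genes 6 were listed, 2 called higher and 2 lower in GFP cells. Mcu, the uniporter pore, was at 106, 379, 106 and 120 CPM, so only GFP differentiation medium was high. Glycolysis gave 10 of 23 genes, 7 called higher and 3 lower in GFP cells, 5 higher and 2 lower in Twist2 cells, and 6 lower and none higher in Twist2 than in GFP differentiation medium, beside 25.2% and 25.4% of all listed genes. Pfkm, the muscle phosphofructokinase, was at 79.4, 778, 68.5 and 299 CPM.

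The 44 genes are spread over 16 chromosomes and are mostly short: 28 fall in the shortest of 5 equal groups of listed genes by transcript length, under 1869 bases. Over the 750 listed genes of that group the median log2 ratio of Twist2 over GFP was 0.30 in differentiation medium, opposite in sign to the -0.39 of the 44 genes, and it was -0.68 in the longest group. The part of transcript length in the results was not tested. Exons of 11 of the genes overlap those of another gene, in 10 cases on the other strand, and without a stated strand setting reads of such pairs cannot be told apart.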

How the data were processed

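Illumina libraries were made from total RNA of 4 cultures, per the labels' protocols. TopHat2 2.0.0, DESeq2 1.6.3 and GRCm38 (mm10) appear in the submitters' processing notes, with no role given. The read counter, annotation and strand setting were not given in the sources used here. A deposited table of 3760 genes gives CPM, scaled by the authors to each library's total, and log2 ratios against GFP growth medium, per the file headers. The deposited log2 ratios equal those of CPM + 1 to within 1.27e-11 and were used only for that check and to see which comparison listed each gene. A further column of the deposited table, with a status for each gene, was not used.

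All CPM values were whole multiples of 1 read (100% within 0.01 reads), so reads per gene were recovered, with totals of 9744075 (GFP growth), 9235281 (GFP differentiation), 11068073 (Twist2 growth) and 12362290 (Twist2 differentiation). Groups came from the sample titles. With 1 library per group the planned count tests could not be run, and no p-value is given. For 4 comparisons, log2 ratios of CPM + 1 were called at 2-fold where the higher library had 10 CPM or more. Exact conditional binomial (Clopper-Pearson) 95% intervals were computed from the reads, and intervals of the difference of responses from the Poisson errors of 4 counts. No molecular identifiers are mentioned, so reads may not be independent molecules and the intervals hold counting error only. The steps were tested on simulated counts.

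Members and gene lists were chosen with earlier results of these data known. Every member was accounted for by role. Values in all libraries were given for at least the 3 members of each role with the widest range, for those against their role's direction and for paralogue pairs, and outside genes came only from the lists, up to 4 of each with the widest range. Alternatives were pseudocounts of 0.1 and 5 CPM, no minimum CPM, scaling to the reads outside the table, and median-of-ratios size factors. Positions, lengths and copies (blastn 2.17.0) come from GENCODE M21, in which 3607 symbols were found directly, 142 by synonym and 11 not. Promoters come from RefSeq. Python 3.11.15, numpy 2.4.6, pandas 2.3.3, scipy 1.17.1 and matplotlib 3.10.9 were used.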

Additional observations from a re-analysis of the deposited data

Results flagged for a closer look

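Slc25a1, the citrate carrier, moved in opposite directions in the GFP and Twist2 libraries on differentiation, with log2 ratios of -1.23 and 0.49 and counting intervals on opposite sides of 0. Slc25a1 was listed only for its low value in GFP differentiation medium. Its GFP fall, and Twist2 lying above GFP in differentiation medium, followed from that. The difference of 1.72 was not tested, because each group had 1 library.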

How the results depend on the processing

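No paired analysis was possible because each group had 1 library. With a pseudocount of 5 CPM, 22 genes were called higher and 4 lower in GFP differentiation medium (34 and 7 with 1 CPM). In Twist2 differentiation medium 1 was called lower (3 with 1 CPM). Of listed genes, 29.5% and 33.0% were then called higher and lower in GFP cells, and 19.9% lower in Twist2 cells. Scaling to the reads outside the table gave 1 lower gene in GFP differentiation medium (17.8% of listed genes), with a median log2 ratio of 1.87. In Twist2 differentiation medium it gave 22 higher and 1 lower (33.3% and 16.6% of listed genes), with a median of 1.0. It gave 1 higher and 20 lower in Twist2 than in GFP differentiation medium (14.4% and 44.4% of listed genes), with a median of -0.98. The medians over all listed genes in these comparisons were 0.37, 0.03 and -0.63. The median difference of responses was then -0.84, beside -0.33 over all listed genes. Size factors gave 3 lower genes (26.6% of listed genes) and a median of 1.43 in GFP differentiation medium, beside -0.07 over all listed genes. They gave a median difference of responses of -0.61, beside -0.10 over all listed genes. They turned the growth medium median from -0.12 to 0.11, and that of all listed genes from -0.10 to 0.12. These scalings differ in which reads set the level, and which is nearer to the cells' RNA content was not tested. A pseudocount of 0.1 CPM and no minimum CPM kept the counts within 1.5 times of those reported. Of 176 ratios of single genes, 122 moved under the first scaling and 67 with size factors. A ratio counted as moved when its shift exceeded the distance from the middle to an end of its counting interval. Depth limits Cox8b, Slc25a42 and Slc25a23 most, with 2, 37 and 41 reads in their lowest libraries.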
